A study of Macaca mulatta with 8 samples.

Results

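The 10 Toll-like receptor genes of the rhesus macaque, TLR1 to TLR10, were followed in primary microglia, the resident macrophages of the brain. The members were the rows whose symbol was TLR1 to TLR10, and all 10 were present among 35432 genes. Of these, 6 encode receptors of the cell surface (TLR1, TLR2, TLR4, TLR5, TLR6 and TLR10) and 4 encode receptors of the endosome (TLR3, TLR7, TLR8 and TLR9). Microglia of 4 adult donors, the males R07110 (13 years) and R12016 (9 years) and the females R02046 (19 years) and R14143 (6 years), were kept in culture for 8 days with the growth factor M-CSF. On day 7 they received 10 µg/mL uLPS, an ultrapure lipopolysaccharide that is an agonist of TLR4, for 16 h. In the other condition, called uLPS+MRS2578, the same exposure followed 1 h with 5 µM MRS2578. This compound blocks P2RY6, through which cells sense UDP outside them. The study's methods call the antagonist selective but not entirely specific. All 8 libraries, 1 for each donor and condition, therefore came from uLPS-exposed cells, and none shows a receptor level without uLPS.

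Toll-like receptors recognise conserved microbial molecules and pass the signal on through TIR domain adaptors to NF-kB, AP-1 and interferon regulatory factors. The surface receptors bind lipids and proteins of microbes, and TLR2 acts in pairs with TLR1 or TLR6. The endosomal receptors bind nucleic acids and depend on UNC93B1 to leave the endoplasmic reticulum. In the brain, microglia are the cells best known for a broad set of these receptors.

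The receptor genes lie on 5 chromosomes of the Mmul_10 assembly by the RefSeq annotation. TLR10, TLR1 and TLR6 are neighbours on the minus strand of chromosome 5, at chr5:37910552-37921489, chr5:37935710-37945703 and chr5:37964499-37994060. TLR2 at chr5:151322435-151347090 and TLR3 at chr5:183349248-183372582 are on the plus strand of the same chromosome. TLR4 is at chr15:25088083-25105816 and TLR5 at chr1:80784492-80817882, both on the minus strand. TLR7 at chrX:12511357-12534481 and TLR8 at chrX:12563581-12566701 are neighbours on the plus strand, and TLR9 is at chr2:108361487-108379379 on the minus strand. The RefSeq model of TLR8 is marked as partial, with 3121 bases of exon. Exons of TLR9 overlap those of LOC114676359, a gene on the opposite strand, over 103 bases.

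The neighbours TLR1 and TLR6 share sequence, which bears on their counts, since reads that match both places are not counted by a unique-read rule. Their coding sequences were 63.7% identical over the first 1200 bases of TLR1 and 90.9% identical over the rest. The longest identical run was 244 bases. The last 120 bases of that run are shown with the stretch of TLR10 that matches best, and capitals mark bases that differ from TLR1. They lie in 1 coding exon each, at chr5:37936686-37936805 (TLR1), chr5:37965865-37965984 (TLR6) and chr5:37912294-37912413 (TLR10).
TLR1: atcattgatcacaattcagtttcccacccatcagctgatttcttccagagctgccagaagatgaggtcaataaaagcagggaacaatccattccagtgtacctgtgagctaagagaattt
TLR6: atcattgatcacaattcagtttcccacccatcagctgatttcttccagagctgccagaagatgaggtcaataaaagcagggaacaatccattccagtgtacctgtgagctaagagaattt
TLR10: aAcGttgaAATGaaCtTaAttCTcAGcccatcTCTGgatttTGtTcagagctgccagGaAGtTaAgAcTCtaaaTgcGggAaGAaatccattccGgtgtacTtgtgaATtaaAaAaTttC
TLR10 differed from TLR1 at 41 of these bases and was 65.8% identical. Over the longest RefSeq transcripts, 6.97% of the 100-base stretches of TLR1 and 9.27% of those of TLR6 also occurred in a transcript of the other gene. For shorter stretches the shares were larger, at 9.56% and 10.9% for 75 bases and 12.3% and 12.6% for 50 bases. For TLR2, TLR3, TLR4, TLR5, TLR7, TLR8 and TLR10 no 100-base stretch occurred in a transcript of another gene, and for TLR9 0.0922% did. With 50-base stretches, TLR7 had 0.222%, TLR9 1.23% and TLR10 0.112%. In this respect the counts of TLR1 and TLR6 are less certain than those of the other receptors, and how the counting treated such reads was not tested. Low counts, as for TLR3, TLR9 and TLR10, are a separate limit.

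Library totals ran from 9231109 to 32790348 counts, and the smaller pair belonged to R02046. Both libraries of R02046 stood under opposite conditions in the deposited labels and in the CPM values published with the study, as matched here to the counts of each library. The files do not show which assignment is right. Values are as labelled unless stated, and the tests between conditions are also given after exchange of the 2 libraries of R02046 and without this donor. Exchanging them turns every difference of R02046 between conditions. Of 10 microglia and macrophage markers, 9 were in the files. AIF1, CSF1R, ITGAM, CD68, SPI1 and PTPRC were at 42.2 CPM or more in every library, whereas P2RY12 ran from 5.70 to 13.3 CPM, CX3CR1 reached at most 2.21 CPM and TMEM119 at most 5 counts. The 9 genes together ran from 3826 to 4518 CPM with uLPS and from 3577 to 4642 CPM with uLPS+MRS2578. The 5 B cell markers, which matter for TLR9 and TLR10 since B cells carry both, summed to at most 0.804 CPM. T cell and neutrophil markers summed to at most 0.112 and 0.457 CPM. Of 4 markers of plasmacytoid dendritic cells, 2 were in the files. CLEC4C, the defining marker, had 0 counts in all libraries, on a RefSeq model that is marked as partial, and TCF4, which other cells also express, ran from 58.0 to 85.7 CPM. Of the astrocyte markers, GFAP ran from 7.38 to 88.9 CPM and SLC1A3 from 39.9 to 82.5 CPM. AQP4 and ALDH1L1 reached at most 2.61 and 1.07 CPM. The 4 astrocyte markers summed to between 54.7 and 147 CPM with uLPS and between 61.6 and 152 CPM with uLPS+MRS2578. Of the endothelial markers, PECAM1 and VWF reached 213 and 121 CPM, and CLDN5 and CDH5 at most 4 and 5 counts. Of the oligodendrocyte markers, MBP stayed between 58.9 and 74.8 CPM, and MOG and MOBP reached at most 10 and 7 counts. Their part in the results was not tested. In such bulk libraries, fewer cells of a type and less RNA per cell cannot be told apart.

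Levels of different receptors were compared as CPM per kilobase of exon, where CPM is the usual depth-scaled count with library totals adjusted by TMM. In the uLPS libraries, transcripts of TLR1, the partner of TLR2 for triacylated lipopeptides, were the most abundant at 84.3 ± 11.5 CPM per kilobase (SD, n = 4 donors). TLR8, a receptor for single-stranded RNA, was at 47.0 ± 16.9. TLR4, the receptor for lipopolysaccharide, was at 46.6 ± 10.5 and TLR2 at 45.0 ± 27.6. TLR6, the partner of TLR2 for diacylated lipopeptides, followed at 19.6 ± 5.48. The remaining receptors were well below these. TLR7, also a receptor for single-stranded RNA, was at 4.36 ± 0.850, TLR5, the flagellin receptor, at 1.96 ± 0.845, and TLR3, the receptor for double-stranded RNA, at 1.17 ± 1.08. TLR10, whose ligands are less settled, was at 0.794 ± 0.373 CPM per kilobase.

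Not all neighbours in that order were separated. TLR1 was above TLR8 in 4 of 4 uLPS libraries, with a mean log2 ratio of 0.90 ± 0.34 (SD). TLR8 and TLR4 differed by a mean log2 ratio of -0.03 ± 0.40, and TLR4 and TLR2 by 0.31 ± 0.87, both less than their spread over donors. TLR2 exceeded TLR6 in 3 of 4 libraries, the exception being R02046. TLR6 exceeded TLR7 by a log2 ratio of 2.14 ± 0.13, the widest and least variable gap in the order among the detected receptors. TLR7 was above TLR5 in 4 of 4 libraries at 1.23 ± 0.77. TLR5 against TLR3 (1.09 ± 1.46) and TLR3 against TLR10 (0.25 ± 1.09) were not separated beyond the spread.

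The order among the abundant receptors depended on the length used. RefSeq gives TLR4 10244 bases of exon but 2478 bases of coding sequence, against 3886 and 2358 for TLR1. For TLR8, whose model is partial, they are 3121 and 3118, so its exon length holds almost nothing outside the coding sequence. Per kilobase of coding sequence, TLR4 led with 193 ± 43.3 CPM in the uLPS libraries and was above TLR1, at 139 ± 18.9, in 4 of 4 donors. TLR2 was then at 122 ± 74.7, TLR8 at 47.0 ± 16.9 and TLR6 at 44.2 ± 12.3. The lower receptors kept their order, with TLR7 at 6.93, TLR5 at 3.12, TLR3 at 1.54 and TLR10 at 1.18 CPM per kilobase of coding sequence. TLR1, TLR2, TLR4, TLR6 and TLR8 together held between 95.6% and 97.5% of the summed level per kilobase of exon in each of the 8 libraries.

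**Figure D1:**
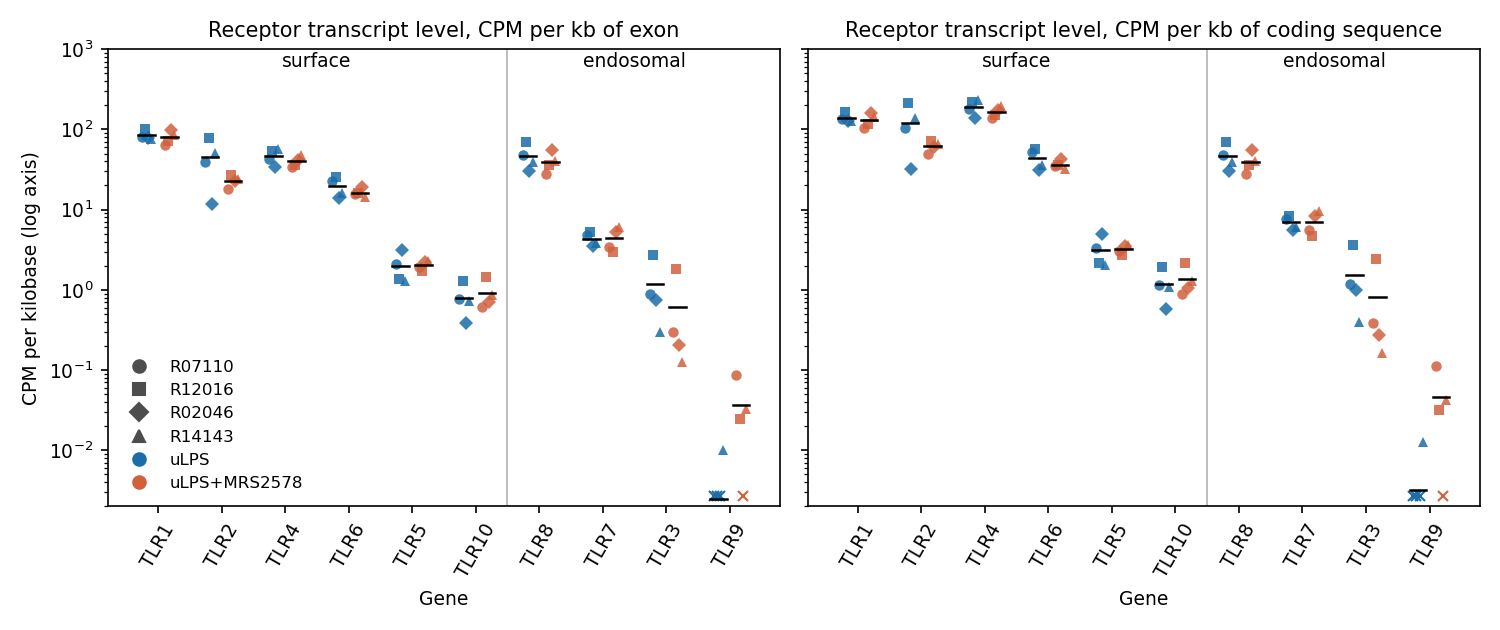
Levels of the 10 receptor transcripts in each library on a log axis, as CPM per kilobase of exon (left) and of coding sequence (right). Symbols are donors, colours are conditions, short black lines are means of 4 donors and crosses at the foot mark libraries with 0 counts. TLR1, TLR2, TLR4, TLR6 and TLR8 lie above the other receptors on both scales, and TLR9 is at or near 0.

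With the antagonist, the order was nearly the same on the exon scale. TLR1 was at 79.7 ± 15.2 CPM per kilobase, TLR4 at 39.9 ± 6.11, TLR8 at 39.7 ± 11.3, TLR2 at 22.9 ± 3.58 and TLR6 at 16.2 ± 2.05. TLR8 was then above TLR2 in 4 of 4 libraries. TLR7 was at 4.42 ± 1.47 and TLR5 at 2.03 ± 0.252, and TLR10 at 0.907 ± 0.378 stood above TLR3 at 0.613 ± 0.812 in 3 of 4 libraries.

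The endosomal receptors made up a minority of the receptor transcripts. Their share of the summed level per kilobase of exon with uLPS ran 22.2%, 23.0%, 19.9% and 17.6% over R07110, R12016, R02046 and R14143. With uLPS+MRS2578 it was 19.04%, 21.0%, 24.7% and 21.1% in the same donors. The share was lower with the antagonist in R07110 and R12016 and higher in R02046 and R14143, and the conditions overlapped. With the exchange, the mean share was 21.9% with uLPS and 20.2% with uLPS+MRS2578. TLR8 alone held between 15.9% and 22.4% of the summed level. The share moves with the lengths used. The partial model of TLR8 has 3121 bases of exon and 3118 of coding sequence, whereas TLR4 and TLR2 are far shorter by coding sequence. Per kilobase of coding sequence, the endosomal share averaged only 9.90% with uLPS and 10.5% with uLPS+MRS2578.

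TLR9, the receptor for unmethylated CpG DNA, was barely detected. It had 0, 0, 0 and 1 counts with uLPS and 11, 2, 0 and 3 with uLPS+MRS2578, in the order R07110, R12016, R02046 and R14143. As a one-sided limit, a count of 0 allows up to 3 counts, which is 0.0913 CPM in the deepest library and 0.320 CPM in the shallowest, for counting error only. Only the 11 counts of R07110, at 0.445 CPM (exact Poisson 95% interval of the count 5.49 to 19.7), were above 3 counts. TLR9 did not pass the filter on low counts and was not tested, and 9 of the 10 receptors were.

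The comparison of uLPS+MRS2578 with uLPS asked whether block of P2RY6 changed receptor transcripts. Each gene was fitted with a donor block in edgeR, quasi-likelihood p-values were taken, and Benjamini-Hochberg adjustment ran over all 12131 genes that passed the filter. All adjusted p-values that follow are from that procedure. With the deposited labels, 0 of the 9 tested receptors had an adjusted p under 0.05, against a background of 0% of all genes tested. Among all genes, 624 had an unadjusted p under 0.05, and edgeR's likelihood ratio test called 5 genes (0.0412%) and DESeq2 1, none of them a receptor. With the R02046 libraries exchanged, 1 of the 9 receptors, TLR2, was called, against 0.618% of all genes tested (75 genes, 63 of them, or 0.519%, lower). The likelihood ratio test then called 4 receptors, TLR2, TLR4, TLR6 and TLR8, against 5.08% of genes. Without R02046, 0 of 9 receptors and 0% of 12295 genes were called, with 1670 genes at an unadjusted p under 0.05.

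In R07110, the uLPS library held 248 CPM of TLR2 transcripts and the uLPS+MRS2578 library 116 CPM. The corresponding values were 498 and 170.0 CPM in R12016, 326 and 155 CPM in R14143, and 74.6 and 143 CPM in R02046. TLR2 was lower with the antagonist in R07110, R12016 and R14143 and higher in R02046, so that the labelled conditions overlapped. With the deposited labels, the fitted value on the log2 scale was -0.74 ± 0.39 (standard error), and the adjusted p was 0.878. With the R02046 libraries exchanged it was -1.17 ± 0.11, with an adjusted p of 0.0248, and all 4 donors were lower. Without R02046 it was -1.24 ± 0.13 (adjusted p = 0.121). The exchanged call was lost without R07110 (log2 fold change -1.19, adjusted p = 0.251) and without the donor block (-1.23, adjusted p = 0.8287). With the exchange, the ranges still overlapped, since the uLPS library of R02046 would be at 143 CPM and the highest antagonist library is at 170.0 CPM.

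As labelled, the uLPS libraries spread most for TLR2 among the abundant receptors. The highest TLR2 level was 6.67 times the lowest with uLPS and 1.46 times with uLPS+MRS2578, and the lowest uLPS value was the library labelled uLPS of R02046. Without R02046 these ratios were 2.01 and 1.46, and with the exchange they were 3.49 and 2.28. TLR1 moved less, and the ratio of TLR1 to TLR2 per kilobase of exon went from 2.08 to 3.51 in R07110, from 1.29 to 2.65 in R12016 and from 1.503 to 3.55 in R14143. In R02046 it was 6.62 with uLPS and 4.36 with uLPS+MRS2578 as labelled, both above every other library. TLR6 against TLR2 had the same pattern, from 0.589 to 0.847, from 0.325 to 0.596 and from 0.312 to 0.588 in R07110, R12016 and R14143, and from 1.197 to 0.851 in R02046. Relative to TLR2, both partners were thus higher with the antagonist in the 3 donors whose assignment is not in doubt, where TLR2 was lower. TLR6 was also lower in these 3 donors, and TLR1 in R07110 and R12016. TLR4, which is not such a partner, had the same pattern against TLR2. Its ratio went from 1.104 to 1.855 in R07110, from 0.684 to 1.365 in R12016 and from 1.104 to 1.958 in R14143. In R02046 it went from 2.861 to 1.863 as labelled. The rise was therefore not particular to the partners, and the ratio of other genes to TLR2 was not tested.

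**Figure D2:**
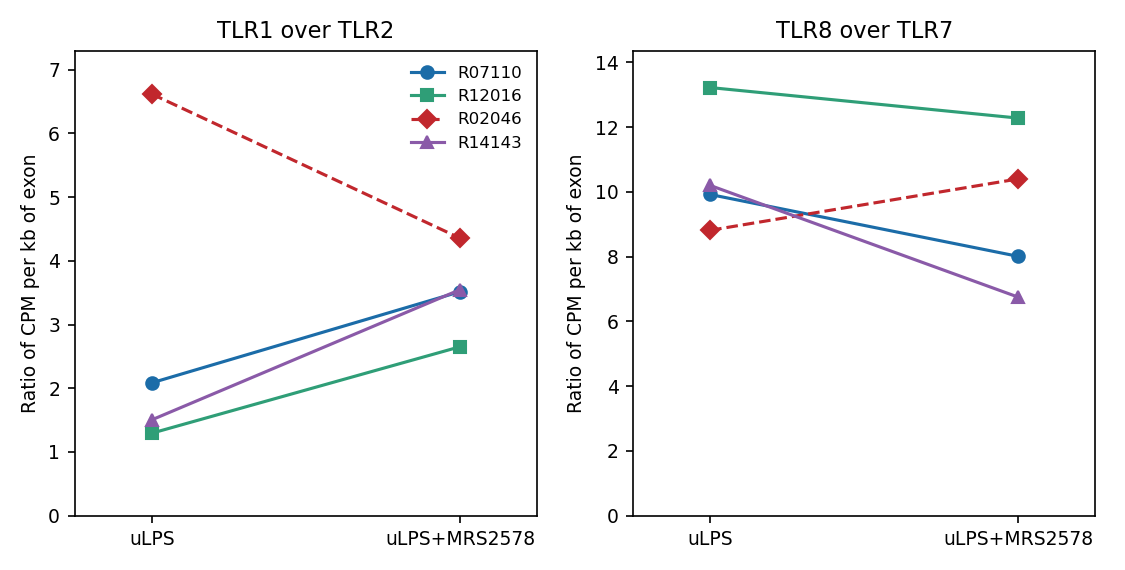
Ratio of TLR1 to TLR2 (left) and of TLR8 to TLR7 (right) in CPM per kilobase of exon, with lines joining the libraries of a donor. The dashed line is R02046 with its deposited labels. The ratio of TLR1 to TLR2 was higher with uLPS+MRS2578 in R07110, R12016 and R14143.

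TLR4 and TLR6 had smaller differences of the same direction as TLR2. TLR4 went from 441 to 347 CPM in R07110, from 548 to 373 CPM in R12016 and from 579 to 488 CPM in R14143, and from 344 to 428 CPM in R02046 as labelled. The TLR4 fit gave -0.21 ± 0.15 with the deposited labels, -0.37 ± 0.089 with the exchange and -0.38 without R02046, with adjusted p-values of 0.897, 0.106 and 0.250. TLR6 went from 124 to 83.1 CPM in R07110, from 137 to 85.6 CPM in R12016, from 85.8 to 76.9 CPM in R14143 and from 75.5 to 103 CPM in R02046 as labelled. The TLR6 fit gave -0.25 ± 0.19 (adjusted p = 0.899), with the exchange -0.46 ± 0.10 (adjusted p = 0.0968) and without R02046 -0.47 (adjusted p = 0.235). As labelled, all 9 tested receptors had overlapping conditions, where 0.412% of all genes tested were lower without overlap. With the exchange, TLR6 was the only receptor whose conditions did not overlap, by a margin of 85.8 against 85.6 CPM, where 1.56% of all genes tested were lower without overlap. None of the 3 fits called either gene.

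TLR1 transcripts changed direction between donors. They went from 316 to 249 CPM in R07110 and from 393 to 275 CPM in R12016, and from 301 to 379.8 CPM in R02046 and 299 to 335 CPM in R14143. The conditions overlapped, and the fit gave -0.09 ± 0.16 (adjusted p = 0.948). With the exchange it was -0.26 ± 0.12 (adjusted p = 0.335), and without R02046 -0.23 ± 0.15 (adjusted p = 0.565).

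Of the 9 tested receptors, TLR5 and TLR10 were the 2 with a fitted value above 0 under the deposited labels. TLR5 ran from 5.23 to 12.7 CPM with uLPS and from 7.08 to 9.33 CPM with uLPS+MRS2578, with a log2 fold change of 0.13 ± 0.24 (adjusted p = 0.949). The exchange gave 0.37 ± 0.19 (adjusted p = 0.389), so TLR5 was the only tested receptor with a value above 0 there. Without R02046, TLR5 was at 0.33 ± 0.23 (adjusted p = 0.595). TLR10 ran from 1.39 to 4.66 CPM and from 2.18 to 5.25 CPM, with 0.16 ± 0.25 (adjusted p = 0.942), and its sign turned with the exchange, at -0.11 ± 0.24 (adjusted p = 0.867). Without R02046 it was 0.0128 ± 0.24 (adjusted p = 0.991). TLR10 rested on 13 to 92 counts in a library.

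Among the endosomal receptors, TLR3 had the most negative fitted value with the deposited labels. It went from 3.20 to 1.05 CPM in R07110, from 9.82 to 6.51 CPM in R12016, from 2.67 to 0.731 CPM in R02046 and from 1.07 to 0.447 CPM in R14143. TLR3 was the only tested receptor that was lower in all 4 donors as labelled, a direction that 6.49% of all genes tested had. The conditions overlapped widely, and the highest uLPS level was 9.21 times the lowest. The fit gave -1.19 ± 0.29, an unadjusted p of 0.00471 and an adjusted p of 0.878. This was the 30th lowest fitted value among 12131 genes. With the exchange, the fitted value of TLR3 moved towards 0, to -0.61 ± 0.43 (adjusted p = 0.525), and without R02046 it was -1.03 ± 0.30 (adjusted p = 0.254).

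The TLR3 values rest on few reads. Its counts were 105, 154, 25 and 21 with uLPS and 26, 103, 10 and 8 with uLPS+MRS2578, in the order R07110, R12016, R02046 and R14143. The exact Poisson 95% interval was 130.6 to 180.3 for the count of 154 and 3.45 to 15.8 for the count of 8. The intervals overlapped for 21 and 8 counts in R14143 and for 25 and 10 counts in R02046. They did not for 105 and 26 counts in R07110, 85.9 to 127 and 17.0 to 38.1, or for 154 and 103 counts in R12016. These intervals cover counting error only and are of raw counts, not scaled for depth. The R07110 libraries held 32790348 and 23700040 counts, so an overlap or its absence does not compare levels.

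TLR8 and TLR7, neighbours on chromosome X, had the same direction in each donor, as did TLR1. TLR8 went from 151 to 86.5 CPM in R07110 and from 218 to 112 CPM in R12016, from 122 to 127 CPM in R14143 and from 95.7 to 171 CPM in R02046 as labelled. TLR7 went from 24.3 to 17.3, from 26.4 to 14.6, from 19.1 to 30.1 and from 17.4 to 26.3 CPM in the same donors. Both were lower with the antagonist in R07110 and R12016 and higher in R14143 and R02046, and the conditions overlapped for both. In R14143 the difference in log2 CPM was 0.0575 for TLR8 and 0.65 for TLR7, and the ratio of TLR8 to TLR7 per kilobase of exon went from 10.2 to 6.75. Over all libraries this ratio lay between 6.75 and 13.2. The TLR8 fit gave -0.23 ± 0.29 (adjusted p = 0.931), with the exchange -0.64 ± 0.16 (adjusted p = 0.122) and without R02046 -0.57 ± 0.21 (adjusted p = 0.324). The TLR7 fit gave -0.03 ± 0.28 (adjusted p = 0.993) and -0.31 ± 0.23 (adjusted p = 0.558) with the exchange, and -0.23 ± 0.29 (adjusted p = 0.788) without R02046.

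**Figure D3:**
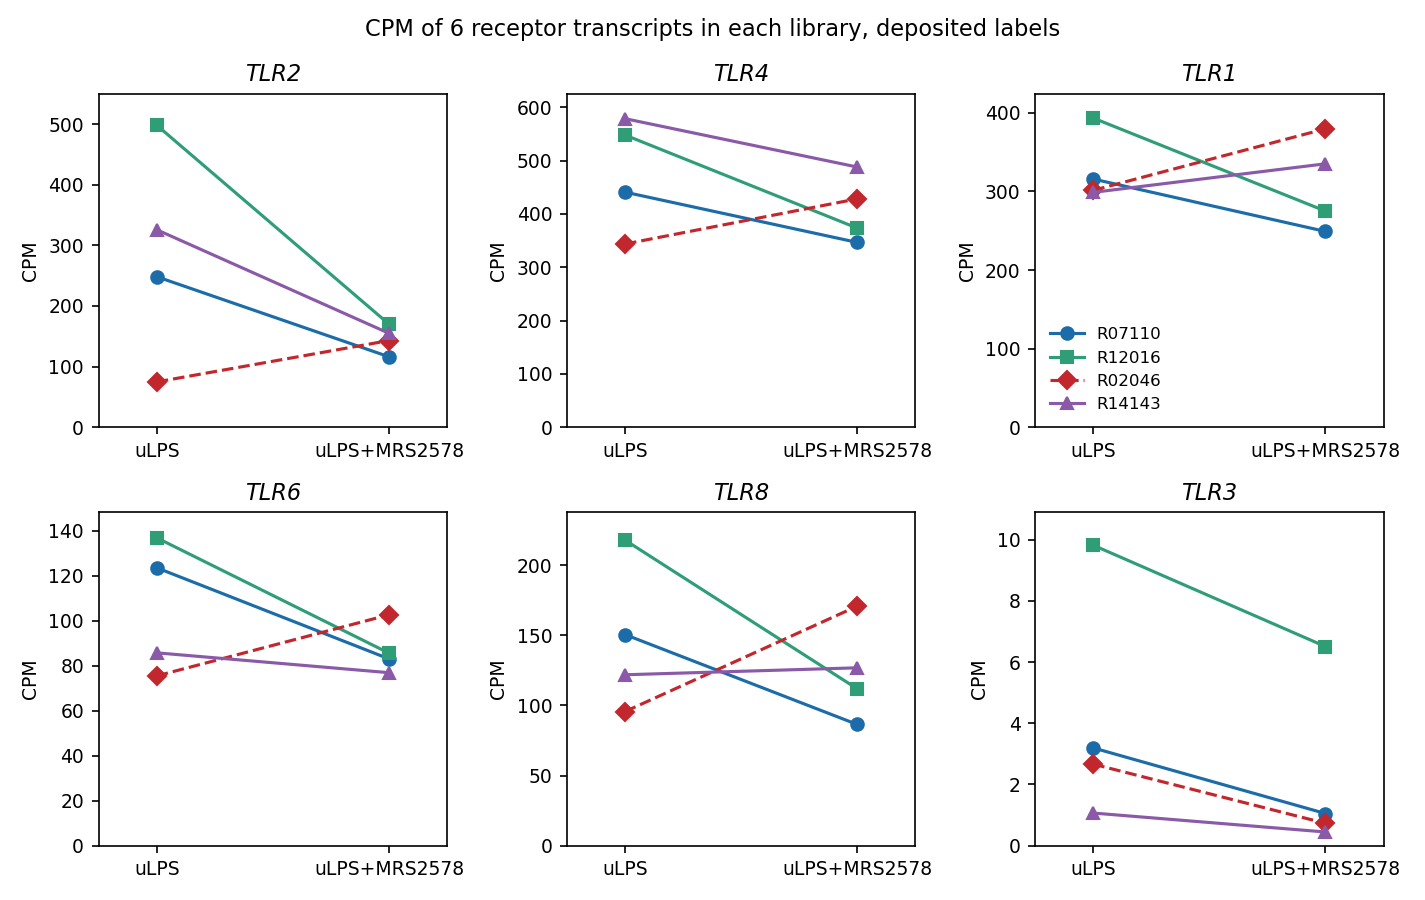
CPM of 6 receptor transcripts in the 8 libraries, with lines joining the libraries of a donor and the dashed line for R02046 with its deposited labels. TLR2, TLR4 and TLR6 were lower with the antagonist in R07110, R12016 and R14143 and higher in R02046, and TLR3 was lower in all 4 donors.

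Surface and endosomal receptors were set side by side by the median of their differences in log2 CPM, uLPS+MRS2578 minus uLPS. In R07110 the median was -0.35 over the 6 surface receptors and -0.80 over the 3 tested endosomal receptors, and all 9 were lower, where 49.7% of all genes tested were lower in that donor. In R12016 the medians were -0.53 and -0.85, and 4 of 6 surface and 3 of 3 endosomal receptors were lower, against 50.2% of genes. In R14143 they were 0.00 and 0.06, with 3 of 6 and 1 of 3 lower, against 53.2%. As labelled, R02046 had medians of 0.39 and 0.60 and only TLR5 and TLR3 lower, against 50% of genes. The endosomal median lay further from 0 than the surface median in all 4 donors, on the lower side in R07110 and R12016 and on the higher side in R14143 and R02046. With 3 endosomal genes, that median is the value of a single gene, TLR8 in R07110 and R14143 and TLR7 in R12016 and R02046.

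**Figure D4:**
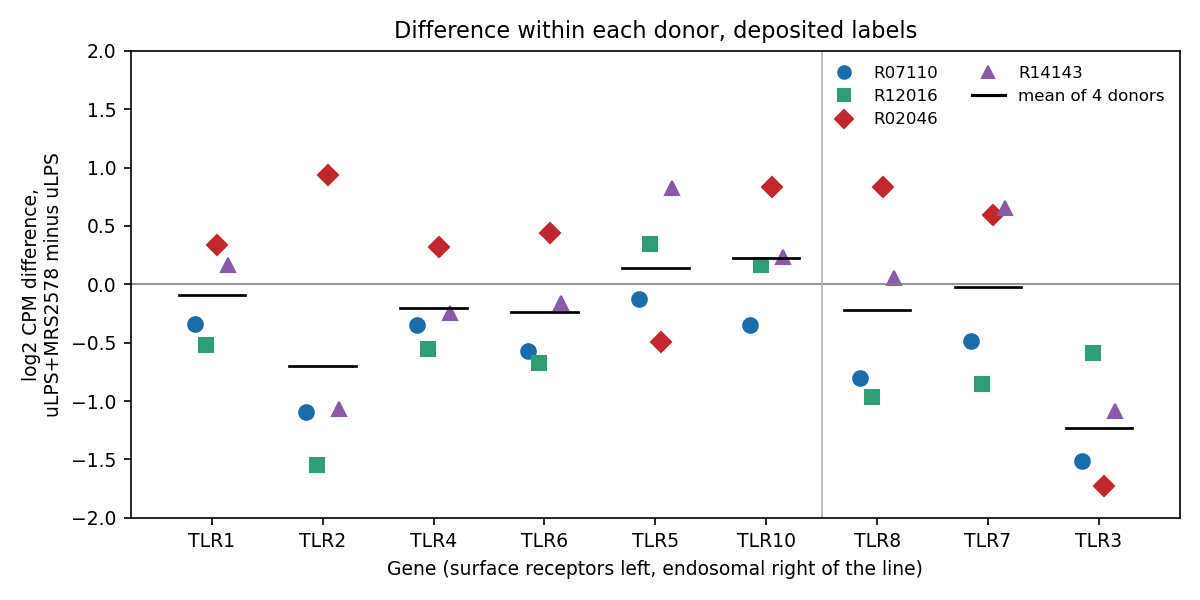
Difference in log2 CPM, uLPS+MRS2578 minus uLPS, within each donor for the 9 tested receptors with the deposited labels. Symbols are donors and black lines are means of 4 donors. R02046 lies above 0 for 7 of 9 receptors, and TLR3 lies below 0 in all donors.

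No test between the compartments was made. With the deposited labels, the median fitted log2 fold change was -0.15 over the surface receptors, with 4 of 6 below 0, and -0.23 over the endosomal receptors, with 3 of 3 below 0, beside -0.01 over all genes tested. With the exchange the medians were -0.31 (5 of 6 below 0) and -0.61 (3 of 3), beside 0.00 over all genes. Without R02046 they were -0.31 and -0.57. The order of the compartments turned without R07110, at -0.0722 for surface and -0.0254 for endosomal receptors, and without R12016, at -0.0159 and 0.0312. It also turned with the exchange without R07110, at -0.30 and -0.25, and without the filter on low counts, at -0.16 and -0.14 with TLR9 included. In the 3 donors whose assignment is not in doubt, TLR2, TLR3, TLR4 and TLR6 were lower with the antagonist in every donor, which is 4 of 9 tested receptors against 19.8% of all genes tested. None of the 9 was higher in all 3 donors, against 17% of genes. The directions of the remaining 5 were mixed.

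**Figure D5:**
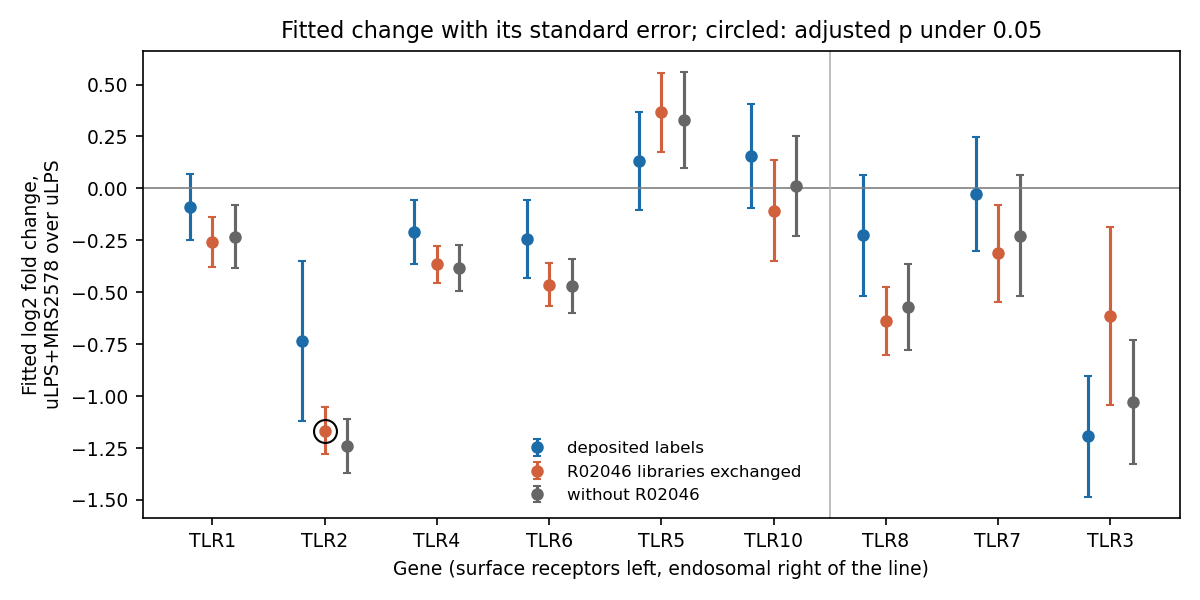
Fitted log2 fold change of the 9 tested receptors, uLPS+MRS2578 over uLPS, for the deposited labels, for the R02046 exchange and without R02046. Bars are standard errors, and the circle marks the only value with an adjusted p under 0.05, TLR2 with the exchange.

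The receptors differed in how much they varied. The SD of TLR3 log2 CPM over the 8 libraries was higher than that of 98.3% of genes tested, and the SD of TLR2 was higher than that of 90.5%. TLR10 stood at the 79.9th percentile and TLR8 at the 69.7th. TLR1 at the 31.7th and TLR4 at the 47.4th percentile varied less than the median gene.

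For 6 receptors that varied more than the median gene, the genes with the most similar profile were found by the root mean square distance between centred log2 CPM over the 8 libraries. Nearest to TLR2 were CD38, an ectoenzyme that uses NAD, at 0.199 and LGALS3BP at 0.220. TLR6 was nearest to ADCY4, an adenylyl cyclase, at 0.0765 and to CYBB, the catalytic subunit of the phagocyte NADPH oxidase, at 0.0825. TLR8 was nearest to PLCL1 at 0.113 and SAMD9L, an interferon-stimulated gene, at 0.157, and TLR7 to ACOD1, the enzyme that makes itaconate, at 0.109 and CHSY1 at 0.130. TLR10 was nearest to TTC30A at 0.177 and MANSC1 at 0.209. TLR3, the most variable receptor, was nearest to BATF2 at 0.510 and ZNF391 at 0.549. The distance is not scaled by a gene's own SD and grows with it, so distances are not comparable between receptors. The likeness covers donor differences and depth as well as the conditions.

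The receptors work with co-receptors, trafficking factors and adaptors, and no gene on these 3 lists passed the test in either direction, with the deposited labels (background 0%) or with the exchange (0.618%). Of 7 partners and co-receptors, 5 were tested, with a median log2 fold change of -0.14, and -0.03 with the exchange. CD14, which hands lipopolysaccharide to TLR4, had 6736 ± 926 CPM (SD, n = 4) without and 5799 ± 818 CPM after the antagonist, the lowest fitted value of the list at -0.22 ± 0.21. CD180, an inhibitory relative of TLR4, had the highest at 0.42 ± 0.19, from 24.4 ± 10.7 to 31.3 ± 11.7 CPM. Their adjusted p-values were 0.907 and 0.878.

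Of 9 genes for folding, trafficking and processing, 8 were in the files and tested, with a median of -0.12, and -0.02 with the exchange. UNC93B1, the chaperone of the endosomal receptors, was at 203 ± 78.4 and 156 ± 32.1 CPM, with -0.32 ± 0.14 (adjusted p = 0.878) and -0.41 ± 0.093 with the exchange (adjusted p = 0.0964). HSP90B1, the endoplasmic reticulum chaperone that folds most Toll-like receptors, was at 1230.3 ± 451 and 1479.8 ± 32.8 CPM, with 0.33 ± 0.20 (adjusted p = 0.878) and 0.50 ± 0.12 (adjusted p = 0.103). These were the lowest and the highest fitted values of the list. Of 13 adaptors, kinases and inhibitors, 12 were tested, with a median of -0.12, and -0.20 with the exchange. The adaptor TICAM2, which links TLR4 to its endosomal signal, had the highest value at 0.26 ± 0.11, from 42.1 ± 2.56 to 51.0 ± 8.82 CPM. Its adjusted p was 0.878, and with the exchange it was at 0.16 ± 0.13 (adjusted p = 0.587). SARM1 had the lowest at -0.72 ± 0.59 (adjusted p = 0.901), on a level of 0.654 ± 0.301 and 0.385 ± 0.232 CPM. With the exchange SARM1 was at -0.49 ± 0.60 (adjusted p = 0.746). IRAK2 was then the lowest at -0.57 ± 0.12 (adjusted p = 0.0928), against -0.42 ± 0.20 (adjusted p = 0.878) as labelled. Of the 3288 exon bases of SARM1, 1292 overlap exons of SLC46A1 on the opposite strand, and their effect on its counts was not tested.

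For 9 of the receptors, the windows from 250 bases before to 30 bases after the RefSeq gene start were searched on both strands for motifs of factors downstream of purinergic and Toll-like receptors and of myeloid cells. The NFAT core TGGAAA occurred in the windows of TLR7 and TLR10 and in 18.7% of 20787 windows of protein-coding genes. The AP-1 motif TGANTCA occurred at TLR1 (5.61% of windows) and the core of the interferon-stimulated response element at TLR2 (3.29%). The PU.1 motif GAGGAAG and the NF-kB consensus occurred in none of the 9 windows, and in 11.2% and 5.45% of all. The windows of TLR3, TLR5, TLR6, TLR8 and TLR9 held none of the 5 motifs, and that of TLR8 lies at the start of a partial model. The window of TLR2, the receptor called with the exchange, is shown 5′ to 3′ on the strand of the gene with the match in capitals. It is chr5:151322185-151322464 (plus strand).
TLR2: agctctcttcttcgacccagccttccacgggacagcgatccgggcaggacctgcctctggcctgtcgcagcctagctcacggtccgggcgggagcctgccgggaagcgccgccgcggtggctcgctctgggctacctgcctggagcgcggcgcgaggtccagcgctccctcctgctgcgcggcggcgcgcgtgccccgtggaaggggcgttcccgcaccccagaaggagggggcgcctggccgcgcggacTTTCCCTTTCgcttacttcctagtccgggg
The match in TLR2 starts at the first base of the gene model. Such matches describe the letters of the window and not binding.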

How the data were processed

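RNA of 8 libraries from 4 donors was measured by directional RNA-seq. The deposited values are whole-number read counts per Ensembl gene, not normalized. The methods name fastp, STAR and HTSeq for these files, with unique reads within exons, and the submitters' processing notes name Trimmomatic 0.30, TopHat2 2.0.14, SAMtools 1.3 and HTSeq 0.6.1p1. Both name Mmul_10. The strand setting, read length and annotation release are not given in the sources used here.

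Counts were analysed in R 4.3.3 with edgeR 4.0.16 (filterByExpr with a minimum count of 10, TMM, quasi-likelihood F-test, Benjamini-Hochberg, threshold 0.05) and DESeq2 1.42.0. The SE is that implied by the test statistic, and log2 CPM has a prior count of 2. Lengths and sequences came from RefSeq Mmul_10, and the counts from Ensembl models, so levels per kilobase are approximate. The donor was a block, since both libraries of a donor come from the same animal; their deviations from the condition means correlated at 0.602, 0.552, 0.458 and 0.562. No libraries were duplicates (chi-square per degree of freedom at least 20.6). The code was tested on simulated counts.

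The members and gene lists were chosen with earlier results of these data known. Named were all receptors, the lowest and highest fitted value of each list under either assignment of R02046, and the 2 nearest profiles of each receptor that varied more than the median gene. The nearest profiles of 1 receptor and the start-site window of another are not reported here. Alternatives were another scaling, tests and filter, no block, each donor left out, the R02046 exchange and, added after seeing the data, coding length, no length and an earlier quasi-likelihood estimation.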

Additional observations from a re-analysis of the deposited data

Results flagged for a closer look

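Among 20 groups of 4 libraries, 1 for each receptor and condition, 2 had a highest library that stood apart by Dixon's criterion. Chance gives about 1 in 20 for values that spread continuously, which those of TLR9 do not. TLR3 with uLPS+MRS2578 was at 6.51 CPM in R12016 and at 0.447 to 1.05 CPM in the other donors. TLR9 with uLPS was at 0.0508 CPM in R14143, which is a single count, and at 0 in the other donors. With all other libraries at 0, any count is flagged, so the TLR9 flag carries no information.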

How the results depend on the processing

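With the deposited labels, genes called rose from 0 to 5 with the likelihood ratio test, 1 with DESeq2 and 75 with the R02046 libraries exchanged, and receptors called from 0 to 1 with the exchange (TLR2). Leaving out a donor moved the endosomal median from -0.57 (without R02046) to 0.0312 (without R12016), and the surface median from -0.31 to -0.0159 for the same donors. It moved TLR1 between -0.23 and 0.0568 (without R12016), TLR5 between -0.10 (without R14143) and 0.33, TLR8 between -0.57 and 0.0312 (without R12016) and TLR7 between -0.26 and 0.24, above 0 without R12016 and, at 0.14, without R07110. Without the donor block TLR7 was at 0.0104. Without R12016, TLR2 went from -0.74 to -0.44, TLR4 from -0.21 to -0.0886 and TLR6 from -0.25 to -0.0970, and TLR10 lay between 0.0128 (without R02046) and 0.36 (without R07110). TLR10 turned to -0.11 with the exchange. With the exchange, leaving out a donor gave 0 of 12082 genes (without R07110), 5 of 12207 (without R12016) or 918 of 12128 (without R14143). Of 9 receptors these fits called 0, 1 (TLR2) and 6 (TLR1, TLR2, TLR4, TLR6, TLR7 and TLR8). The other fits with the exchange tested 12131 genes and 9 receptors. No block gave 0 genes and 0 receptors, and the earlier estimation 39 genes and 1 receptor (TLR2). The likelihood ratio test gave 616 and 4, and DESeq2 583 and 4 (TLR2, TLR4, TLR6 and TLR8 in both). Beyond these and the TLR2 values above, the block changed no call. The endosomal share was 9.90% (uLPS) and 10.5% (uLPS+MRS2578) by coding length and 12.4% and 13.2% without division by length, against 20.7% and 21.4% by exon length. The causes were not tested. TLR9, under the filter, got a value only in the unfiltered fit of 19045 genes with the deposited labels. It was 3.70 ± 1.42 (edgeR quasi-likelihood, adjusted p = 0.879), resting on 1 count with uLPS and 16 with uLPS+MRS2578. Depth limits TLR3, TLR9 and TLR10 most.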
